A study of Homo sapiens with 6 samples.

Results

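Claudins, protocadherins and related junction genes were followed in HK2 cells, an immortalised line of human renal proximal tubule epithelium, after transduction with an shRNA against PGC-1alpha. The members were all genes of the array whose platform symbol begins as a cadherin (CDH with a digit), protocadherin (PCDH), claudin (CLDN with a digit) or integrin chain (ITGA or ITGB) does. CLDN1 was left out by that rule. This gave 64 of the 14884 genes with a symbol: 23 claudins, 16 protocadherins of the beta cluster, 13 other protocadherins and 2 cadherins (CDH23 and CDH26), plus 3 integrin beta binding proteins, 4 antisense RNAs and 3 beta protocadherin pseudogenes that share the symbols. Integrin alpha and beta chains gave 0 members, so the name integrins does not describe the set, and classical cadherins and the alpha and gamma protocadherin clusters were not analysed here either. PCDH11Y was counted, but its values are not given.

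Cells carried the pLKO.1 lentivirus with shPGC-1alpha (3 arrays) or, as the control, with shGFP, directed against a protein that human cells do not make (3 arrays). Each group stands for a single named construct in a single cell line. After puromycin selection, RNA was taken on day 5 after transduction, 24 hours after selection ended. PGC-1alpha, encoded by another gene, is a coactivator that drives transcription for mitochondria. The labels call the arrays biological replicates and do not state separate transductions, so the p-values cover only how these samples vary, which may be technical.

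Claudins are membrane proteins of the tight junction. Their strands seal the space between epithelial cells, and some claudins form pores through which selected ions and water pass. In the kidney each nephron segment has its own set: CLDN2 makes the cation and water pore of the proximal tubule, CLDN16 and CLDN19 serve divalent cation reabsorption in the thick ascending limb, and CLDN3, CLDN4, CLDN7 and CLDN8 are known from tighter, more distal segments. Protocadherins are a large branch of the cadherin superfamily. Those of the beta cluster lie in tandem, and each gene has its own promoter. Each encodes a protein whose extracellular part is used in recognition between cells of the nervous system.

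The sequences upstream of the beta protocadherin genes are shown first because PCDHB2 passed as higher and PCDHB14 as lower while sharing a promoter element. Each of these 2 calls was lost without any of 5 of the 6 arrays. The RefSeq promoter table (GRCh38.p14) held a window for 14 of the 16 coding beta genes, and the 250 bases before each gene's start were searched. The run GGTGGCGCT, noticed in these sequences and then counted, stood in 12 of the 14 (85.7%), always on the gene's own strand, with its first base 16 to 84 bases before the start. On either strand (the reverse complement is AGCGCCACC) it stood in 144 of all 35116 windows (0.41%). PCDHB1 and PCDHB8 did not have these exact letters in the window. A set of 6 genes was chosen after their values were seen, so as to hold differences on both sides of 0. Only PCDHB2 and PCDHB14 of these passed an adjusted p of 0.05. For each of the 6 the run is given in capitals with the 20 bases before it and the 7 after it. They stand in the order of the genes, 5′ to 3′ on the plus strand.
PCDHB2: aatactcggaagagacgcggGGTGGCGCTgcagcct
PCDHB3: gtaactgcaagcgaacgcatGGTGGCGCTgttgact
PCDHB7: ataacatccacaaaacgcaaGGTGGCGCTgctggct
PCDHB16: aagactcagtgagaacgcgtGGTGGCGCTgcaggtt
PCDHB9: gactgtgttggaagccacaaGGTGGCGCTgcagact
PCDHB14: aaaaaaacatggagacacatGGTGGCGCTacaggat
These stretches lie upstream of the annotated genes at chr5:141094535-141094570 (PCDHB2), chr5:141100384-141100419 (PCDHB3), chr5:141172557-141172592 (PCDHB7), chr5:141182301-141182336 (PCDHB16), chr5:141187065-141187100 (PCDHB9) and chr5:141223254-141223289 (PCDHB14). Beta cluster windows were also poor in G and C, with a median of 39.6% and a range of 30.8% to 44.8%, against a median of 58.0% over all windows. The claudin windows had a median of 54.6%.

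CLDN2, the claudin with the largest difference, has 2 starts in the same table, and the 250 bases before each are printed because its transcript was lower in the knockdown. The array value does not say which start was used.
CLDN2 start 1: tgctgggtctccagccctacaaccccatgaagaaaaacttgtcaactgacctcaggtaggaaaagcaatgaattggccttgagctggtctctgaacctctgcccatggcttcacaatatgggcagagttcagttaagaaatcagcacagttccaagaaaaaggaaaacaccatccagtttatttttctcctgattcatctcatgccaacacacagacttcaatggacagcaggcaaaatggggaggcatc
CLDN2 start 2: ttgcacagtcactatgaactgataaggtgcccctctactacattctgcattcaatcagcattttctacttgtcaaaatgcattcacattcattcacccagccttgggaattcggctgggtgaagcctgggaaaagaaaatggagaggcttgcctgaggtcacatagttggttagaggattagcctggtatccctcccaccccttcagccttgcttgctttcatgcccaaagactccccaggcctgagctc
They lie on the plus strand at chrX:106899914-106900163 and chrX:106918110-106918359 and hold 0 and 1 CpG, against a median of 11 over all windows. Nothing is in capitals, because the motifs searched on both strands gave no match there: CACCTG, an E-box read by ZEB and Snail proteins, TNAAGGTCA of estrogen-related receptors, a site of NF-kB, and TATAAA, the core box that TBP reads. CACCTG stood in 17.5% of all windows and in 8 of the 61 windows of the 47 coding members that had one. TATAAA stood in 10.7% of all windows and 4 of the 61, TNAAGGTCA in 0.854% and 0 of the 61, and the NF-kB site in 0.527% and 0 of the 61. No match says only that these letters are not in these windows.

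Array medians over all probe sets lay between 5.00 and 5.02 with shPGC-1alpha and between 5.01 and 5.04 with shGFP, in log2 units, and 3 arrays a group limit the precision. Over the 14884 tested genes the medians did not overlap, at 6.12 to 6.14 with shPGC-1alpha and 6.17 to 6.19 with shGFP. Arrays of the same group correlated at r = 0.988 to 0.992 and arrays of different groups at 0.982 to 0.987. On the second principal component (19.6% of the variance) shGFP replicate 1 stood at 42.6, away from the other shGFP arrays at -19.7 and -26.9. Of 19 listed proximal tubule markers, 6 were measured, of which 4 were not dim. PAX8, a transcription factor of renal epithelium, stood well above the dim level, at 11.82 with shPGC-1alpha and 11.44 with shGFP. MME had 7.16 with shPGC-1alpha and 7.77 with shGFP, the water channel AQP1 5.97 with shPGC-1alpha and 5.97 with shGFP, and the peptidase ANPEP 4.72 with shPGC-1alpha and 4.56 with shGFP. The proximal tubule endocytic receptors LRP2 and CUBN were dim in both groups, at 4.001 and 3.90 with shPGC-1alpha and 3.94 and 3.95 with shGFP. A gene is called dim where both group means lie below 4.43, the 20th percentile of the 14884 gene means. Markers of endothelium, 3 measured of 5, summed to 53.2 to 59.2 in linear RMA values with shPGC-1alpha and 57.9 to 63.6 with shGFP. Leukocyte markers, 2 measured of 8, summed to 2766 to 2985 with shPGC-1alpha and 2238 to 2341 with shGFP, nearly all from CD68. The single measured distal nephron marker of 6, AQP2, had 6.17 with shPGC-1alpha and 6.09 with shGFP. The target of the shRNA was not analysed here.

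The transcripts of most members did not pass the test between cells with shPGC-1alpha and cells with shGFP. In limma with Benjamini-Hochberg adjustment over all 14884 genes, 6 of the 64 members (9.38%) passed an adjusted p of 0.05, 3 higher and 3 lower, whereas 21.8% of all genes passed, 9.58% higher and 12.2% lower. The median log2 difference, shPGC-1alpha minus shGFP, was -0.01 over the members and -0.02 over all genes. The median size of the difference, sign ignored, was 0.096 over the members and 0.143 over all genes. The values of both groups were fully separate for 11 members (17.2%), against 38.7% of all genes. Of the 64 members 28 were dim, as were 2824 of the 14884 genes, and the 6 that passed were not dim. Among genes that were not dim, 6 of 36 members (16.7%) passed, against 26.1% of all such genes, and the groups did not overlap for 27.8% of these members, against 45.0%. The means of these 36 members were 4.49 to 7.04, against 3.95 to 13.17 for all such genes. Their median SE was 0.091, against 0.082. The part of intensity and precision in the lower shares was not tested. Values of different genes come from different probes, so they are compared between groups and not between genes.

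**Figure D1:**
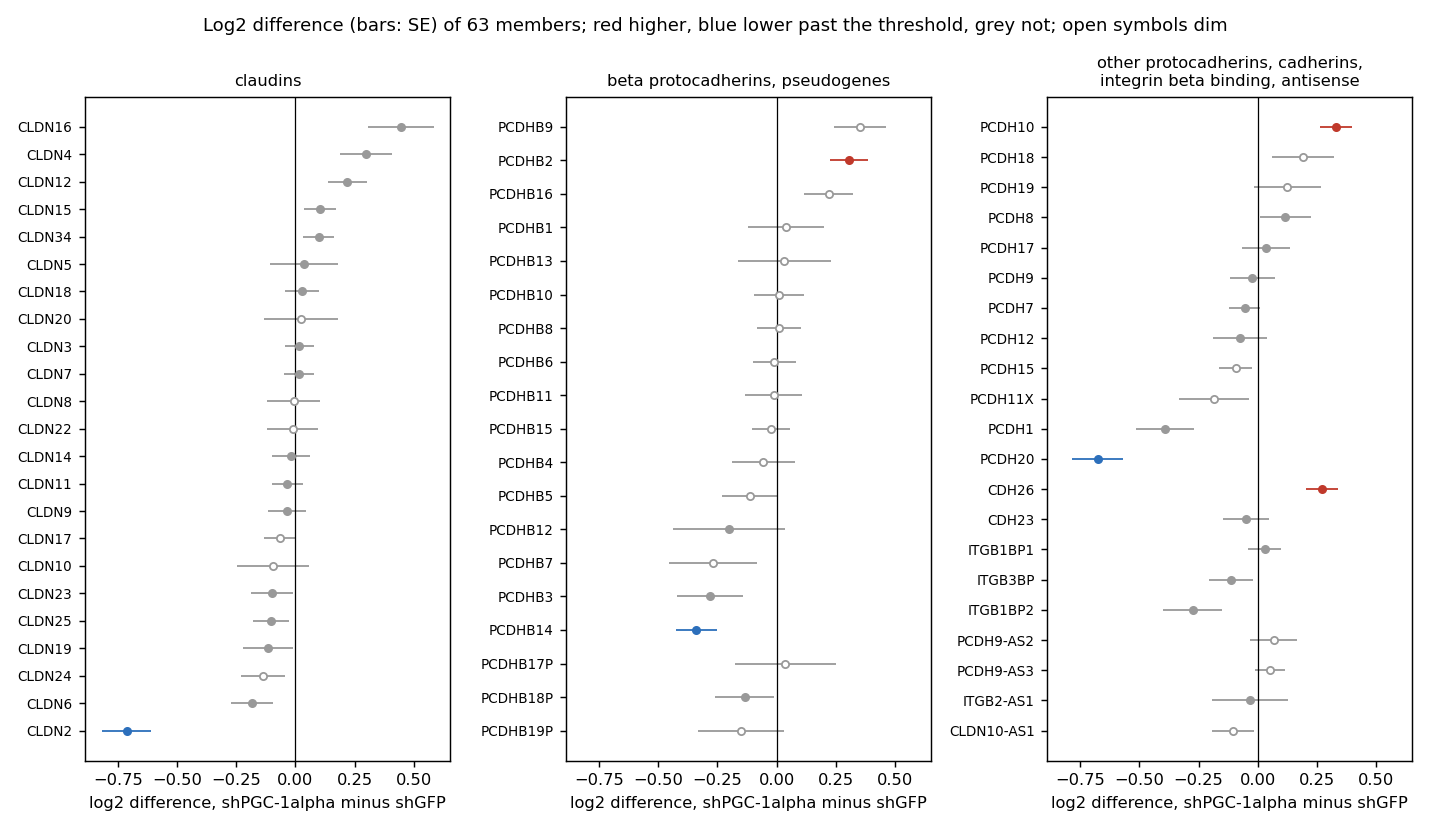
Log2 difference (shPGC-1alpha minus shGFP, horizontal axis) of 63 members, with SE, by subfamily. Red points passed an adjusted p of 0.05 as higher, blue points as lower and grey points did not pass; open points are dim. CLDN2 and PCDH20, at -0.71 and -0.68, lie farthest from 0.

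Among claudins, 1 of 23 passed (4.35%), against 21.8% of all genes, and it was lower. Of the 17 claudins that were not dim, 5.88% passed, against 26.1% of all such genes. CLDN2, the proximal tubule pore claudin, had log2 values of 6.22, 6.33 and 6.57 in shPGC-1alpha cells, against 7.20, 7.003 and 7.06 in shGFP cells. All 3 shPGC-1alpha arrays were lower than every shGFP array. The means were 6.37 ± 0.18 with shPGC-1alpha and 7.09 ± 0.10 with shGFP (SD, n = 3 each), 1.64-fold lower, with a log2 difference of -0.71 (SE 0.11, limma adjusted p 0.0032). With any 1 array left out the difference stayed between -0.81 and -0.64, with a highest adjusted p of 0.0150. In bulk RNA, fewer cells that express a gene and less RNA per cell cannot be told apart. Of the epithelial marker genes, 5 measured of 6 listed, KRT19, EPCAM and KRT18 passed as lower, while KRT7 had -0.31 (limma adjusted p 0.0506) and KRT8 -0.09 (limma adjusted p 0.748). The summed linear RMA values of the 5 were 1249 to 1305 with shPGC-1alpha and 2015 to 2118 with shGFP. The 6 measured of 19 proximal tubule markers summed to 3800 to 4023 with shPGC-1alpha and 2980 to 3215 with shGFP, nearly all from PAX8. Of these 6, PAX8 passed as higher (0.38), the brush border peptidase MME passed as lower (-0.61, limma adjusted p 0.0011), and the other 4 did not pass. The 2 measured fibroblast markers of 7, LUM and DCN, both rose and summed to 624 to 705 with shPGC-1alpha and 385 to 400.1 with shGFP. The part of these markers in the CLDN2 value was not tested.

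The claudins of thick ascending limb and distal segments gave values on both sides of 0. CLDN16, a thick ascending limb claudin, had 6.01, 5.63 and 5.80 in shPGC-1alpha cells, against 5.21, 5.62 and 5.28 in shGFP cells. The groups did not overlap, by a margin of shPGC-1alpha replicate 2 over shGFP replicate 2, and the log2 difference of 0.44 (SE 0.14) missed the threshold (limma adjusted p 0.0603). Without shGFP replicate 2 it was 0.57 with an adjusted p of 0.0271. In the RefSeq gene table CLDN16 overlaps CLDN1, so that transcripts of the neighbour could bear on its probes. CLDN1 itself, a barrier claudin that is no member, was higher, at 12.04 ± 0.08 with shPGC-1alpha and 10.71 ± 0.03 with shGFP, a log2 difference of 1.33 (SE 0.07, limma adjusted p 5.4e-05). Whether CLDN16 values hold signal from CLDN1 was not tested. CLDN19, the partner of CLDN16 in the thick ascending limb, had a log2 difference of -0.12 (SE 0.11, limma adjusted p 0.513), and the 95% interval ran from -0.36 to 0.13.

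CLDN4, a claudin of the distal nephron, had 5.72, 5.53 and 5.64 with shPGC-1alpha, against 5.31, 5.15 and 5.55 with shGFP. Its groups overlapped, and its log2 difference of 0.30 (SE 0.11) did not pass (limma adjusted p 0.104). Without shGFP replicate 3 the difference was 0.40 with an adjusted p of 0.0369. CLDN12, known in the intestine for calcium uptake, had a log2 difference of 0.22 (SE 0.08, limma adjusted p 0.111), with arrays of 6.09, 5.88 and 5.95 for shPGC-1alpha and 5.70, 5.70 and 5.86 for shGFP that did not overlap.

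CLDN3, a barrier-forming claudin whose probe set had the highest mean among the claudin members, had 6.97, 6.92 and 7.01 with shPGC-1alpha, against 6.94, 6.96 and 6.95 with shGFP. The values of the groups lay among each other. Its log2 difference was 0.02 (SE 0.06, limma adjusted p 0.883), with a 95% interval of -0.12 to 0.16 that leaves out a change as large as that of CLDN2. CLDN15, a cation pore of the intestine, had 0.10 (SE 0.07, limma adjusted p 0.341) and CLDN7 0.01 (SE 0.06, limma adjusted p 0.912). CLDN10, which makes ion pores in the proximal tubule and thick ascending limb, was dim, with 3.96, 3.71 and 3.46 against 3.59, 3.80 and 4.02 in shGFP cells. The 22 claudins that did not pass ranged from -0.18 to 0.44 in log2 difference, and 6 of the 23 were dim, CLDN10 among them. As higher, 0 of 23 claudins passed in limma and 3 had an unadjusted p under 0.05, CLDN16, CLDN4 and CLDN12, as did 2211 of the 14884 genes.

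**Figure D2:**
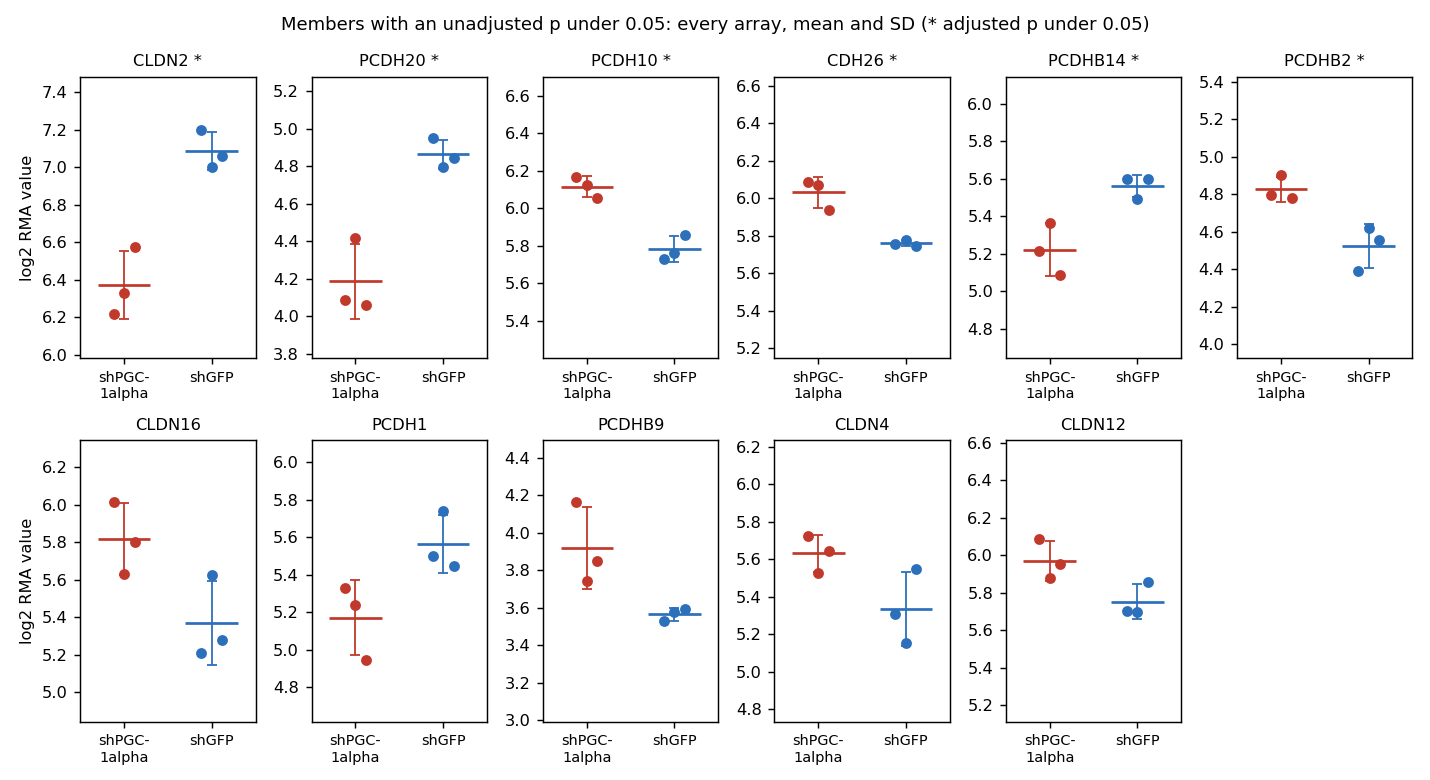
Log2 RMA values of the 11 members with an unadjusted p under 0.05, with each array as a point, the group mean as a line and the SD as a bar; shPGC-1alpha stands left of shGFP, every vertical axis spans the same length, and an asterisk marks an adjusted p under 0.05. Groups overlap for CLDN4 and do not overlap for the other 10 members.

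Outside the beta cluster, 2 of 13 protocadherins passed (15.4%), 1 in each direction, against 21.8% of all genes. PCDH20, a non-clustered protocadherin, had 4.09, 4.42 and 4.06 in shPGC-1alpha cells, against 4.95, 4.80 and 4.84 in shGFP cells. Every shPGC-1alpha array was lower than every shGFP array. The means were 4.19 ± 0.20 with shPGC-1alpha and 4.86 ± 0.08 with shGFP (SD, n = 3 each), 1.60-fold lower, with a log2 difference of -0.68 (SE 0.11, limma adjusted p 0.0044). With any 1 array left out the difference was -0.79 to -0.61, with a highest adjusted p of 0.0198. Its mean with shPGC-1alpha lay under the level of 4.43 that marks dim genes. CLDN2 and PCDH20 were the only 2 of the 64 members that differed by 0.5 log2 units or more, as 1358 of the 14884 genes did.

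PCDH10, a protocadherin known to recruit the actin-regulating WAVE complex to cell contacts, was higher. Its values were 6.17, 6.12 and 6.06 with shPGC-1alpha, against 5.73, 5.76 and 5.86 with shGFP, without overlap. The log2 difference was 0.33 (SE 0.07), a 1.26-fold higher level (limma adjusted p 0.0129), and without shGFP replicate 2 the adjusted p was 0.0505. PCDH1, a protocadherin of airway and other epithelia, had 5.33, 5.24 and 4.94 with shPGC-1alpha, against 5.50, 5.74 and 5.45 with shGFP. These arrays did not overlap, but the log2 difference of -0.39 (SE 0.12) did not pass (limma adjusted p 0.0610).

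Most other protocadherins of this group showed small differences. PCDH7 had -0.06 (SE 0.06, limma adjusted p 0.616), with 5.57, 5.61 and 5.55 against 5.57, 5.70 and 5.62 in shGFP cells. PCDH17 had a log2 difference of 0.03 (SE 0.10) on the probe set with the higher mean and 0.26 (SE 0.11) on its other probe set, and neither passed. PCDH9 had -0.02 (SE 0.09) and -0.20 (SE 0.13) on its 2 probe sets. The 11 that did not pass ranged from -0.39 to 0.19, and 5 of the 13 were dim. PCDH15, which with CDH23 forms the tip links of hair cells in the inner ear, was among the dim genes.

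CDH26, an atypical cadherin known from epithelium in allergic inflammation, was higher in shPGC-1alpha cells, with 6.09, 6.07 and 5.94 against 5.76, 5.78 and 5.75 in shGFP cells. The lowest shPGC-1alpha array lay above the highest shGFP array. The log2 difference was 0.27 (SE 0.07), a 1.21-fold higher level (limma adjusted p 0.0272). The call was lost without any single array other than shPGC-1alpha replicate 3, with adjusted p-values of 0.0676 to 0.0850. CDH23 had a log2 difference of -0.05 (SE 0.10, limma adjusted p 0.781).

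Of the 16 coding beta protocadherins 2 passed (12.5%), 1 higher and 1 lower, against 21.8% of all genes. Among the 16, 12 were dim, and only 3.43% of all dim genes passed. Both that passed were among the 4 that were not dim (50%, against 26.1% of all such genes). So few genes with signal cannot show whether the cluster moved together. The median log2 difference over the 16 was -0.01. PCDHB2, near the start of the cluster, had 4.80, 4.90 and 4.78 with shPGC-1alpha, against 4.39, 4.62 and 4.55 with shGFP. Its groups did not overlap, and the log2 difference was 0.31 (SE 0.08, limma adjusted p 0.0348). PCDHB14, near the other end, had 5.22, 5.36 and 5.09 with shPGC-1alpha, against 5.60, 5.49 and 5.60 with shGFP. Here all shPGC-1alpha arrays were lower, by 0.34 in the means (log2 difference -0.34, SE 0.09, limma adjusted p 0.0296). Both calls were fragile. That of PCDHB2 held without shGFP replicate 2 and was lost without each other array, with adjusted p-values of 0.0658 to 0.1045. That of PCDHB14 held without shPGC-1alpha replicate 2 and was lost without each other array, at 0.0557 to 0.0910.

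PCDHB9 and PCDHB16 are neighbours in the cluster and both are dim. PCDHB9 had 4.16, 3.74 and 3.85 with shPGC-1alpha, against 3.53, 3.58 and 3.60 with shGFP. The groups did not overlap, and the log2 difference of 0.35 (SE 0.11) missed the threshold (limma adjusted p 0.0622). Without shPGC-1alpha replicate 2 it was 0.44 with an adjusted p of 0.0389. PCDHB16 had 0.22 (SE 0.10, limma adjusted p 0.187).

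Further values on the lower side came from PCDHB3, at -0.28 (SE 0.14, limma adjusted p 0.211), and PCDHB7, at -0.27 (SE 0.19, limma adjusted p 0.373). Without shGFP replicate 1, PCDHB3 had -0.42 with an adjusted p of 0.0439. PCDHB12 varied most among the shGFP arrays, with 4.52, 4.94 and 4.52 with shPGC-1alpha, against 4.34, 5.25 and 5.00 with shGFP, and a log2 difference of -0.20 (SE 0.23). The 14 coding beta genes that did not pass ranged from -0.28 to 0.35. The 12 genes with the GGTGGCGCT run had log2 differences between -0.34 (PCDHB14) and 0.35 (PCDHB9). The 6 of them printed above were chosen to hold both directions, so their spread is no result. Whether the run bears on these differences was not tested. Beta protocadherin genes are similar in sequence, so their probes may share transcripts and their single values are uncertain. The pseudogenes PCDHB17P, PCDHB18P and PCDHB19P had differences of 0.04, -0.14 and -0.15 and did not pass.

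**Figure D3:**
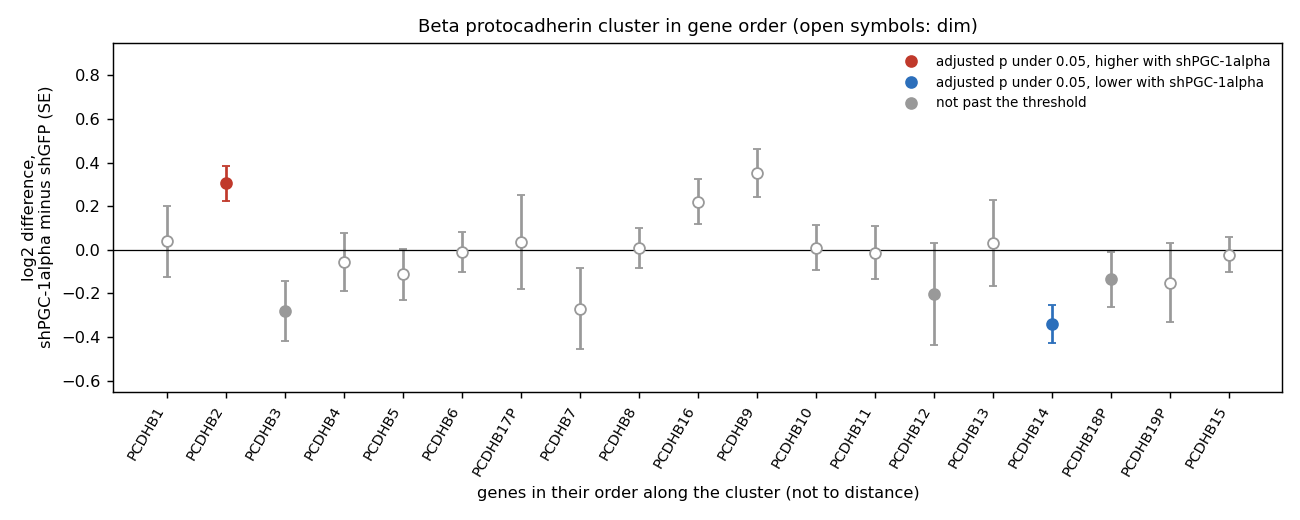
Log2 difference (shPGC-1alpha minus shGFP, vertical axis, with SE) of the 16 coding beta protocadherins and 3 pseudogenes in their order along the cluster, which is not drawn to distance. PCDHB2 (red, 0.31) and PCDHB14 (blue, -0.34) passed the threshold in opposite directions, and most genes between them lie near 0 with open symbols, which mark dim genes.

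No integrin chain matching the rule had a symbol on the platform, so none was a member. The members did hold 3 proteins that bind integrin beta tails or are named for it. ITGB1BP1, known as ICAP-1, which holds back integrin activation, had 7.03, 7.10 and 7.04 with shPGC-1alpha, against 6.93, 7.11 and 7.05 with shGFP. The groups overlapped, and the log2 difference was 0.03 (SE 0.07, limma adjusted p 0.825). ITGB3BP, also known as the centromere protein CENP-R, had -0.11 (SE 0.09, limma adjusted p 0.454), and ITGB1BP2, a muscle protein called melusin, had -0.28 (SE 0.13, limma adjusted p 0.178). The 4 antisense RNAs, CLDN10-AS1, ITGB2-AS1, PCDH9-AS2 and PCDH9-AS3, ranged from -0.10 to 0.07, and 3 of them were dim. CLDN10-AS1 and the PCDH9 antisense RNAs overlap CLDN10 and PCDH9, and which strand the probes read is not given in the sources used here.

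Genes of the proteins that claudins and cadherins work with were read from 8 lists. Their counts stand beside 12.2% of all genes that fell and 9.58% that rose by the same threshold. Of the 12060 genes that were not dim, 1768 fell and 1378 rose. The lists held 0 dim genes, apart from 4 of the desmosomal genes and 3 of the repressors and mesenchymal genes. They were chosen with earlier results of these data known. Among other tight junction genes, 13 measured of 20 listed, 7 fell and 1 rose, with a median log2 difference of -0.36 against -0.02 over all genes. LSR, the angulin of tricellular contacts, fell by 1.05 on the log2 scale (SE 0.06), the scaffold PATJ by 1.24 (SE 0.09) and CGNL1, which ties junctions to the cytoskeleton, by 0.94 (SE 0.08). Their limma adjusted p-values were 7.6e-05, 0.00016 and 0.00038. The other genes that fell, named after their values were seen, were TJP1, the claudin scaffold ZO-1, at -0.47, and the junction membrane proteins OCLN, at -0.57, MARVELD3, at -0.54, and MARVELD2, the tricellulin of tricellular contacts, at -0.36. JAM3 rose by 0.37. OCLN was lost without shGFP replicate 2 or 3 (adjusted p 0.0513 and 0.0566), MARVELD3 without any of shPGC-1alpha replicate 3 and the 3 shGFP arrays (0.0516 to 0.0778), and MARVELD2 without any array other than shGFP replicate 1 (0.0532 to 0.1227). The count that fell was then 4 without shGFP replicate 2 or 3.

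Desmosomal genes, 10 of 10 measured, held 3 that fell and 1 that rose, beside 12.2% and 9.58% of all genes. The desmosomal cadherin DSC2 fell by 1.02 (SE 0.07) and desmoplakin, DSP, which anchors keratin filaments, fell by 0.73 (SE 0.07), with limma adjusted p-values of 0.0002 and 0.00043. DSG2 rose by 0.26 (SE 0.07, limma adjusted p 0.0320) and DSC3, chosen after its values were seen, fell by 0.28 (SE 0.08, limma adjusted p 0.0353). DSG2 was lost without any array other than shGFP replicate 2 (adjusted p 0.0610 to 0.1058) and DSC3 without any array other than shPGC-1alpha replicate 3 (0.0549 to 0.1178). Of 7 measured catenins and cadherin partners (15 listed), plakophilin 2, PKP2, fell by 0.60 (SE 0.07) and plakoglobin, JUP, rose by 0.58 (SE 0.09), with limma adjusted p-values of 0.0014 and 0.0036. PKP4 had 0.17 (SE 0.07, limma adjusted p 0.112). Nectins and other adhesion molecules, 11 of 12 measured, split into 3 that rose and 3 that fell. NECTIN2 rose by 0.67 (SE 0.07), whereas EPCAM fell by 0.73 (SE 0.07) and ALCAM by 0.63 (SE 0.06).

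On the integrin side, 20 of 26 listed genes of the adhesion complex were measured. Of these 2 rose and 1 fell, beside 9.58% and 12.2% of all genes. The kindlins, which activate integrins, went in opposite directions: FERMT1 fell by 1.34 (SE 0.06) and FERMT2 rose by 0.70 (SE 0.07). The adaptor TNS1 rose by 0.87 (SE 0.07), and the limma adjusted p-values of these genes were 4.2e-05 for FERMT1, 0.00062 for FERMT2 and 0.00023 for TNS1. Among 12 measured integrin ligands (23 listed) 3 rose and 1 fell. TNC, a matrix protein, rose by 1.36 (SE 0.07), ICAM1, the ligand of leukocyte integrins, rose by 1.07 (SE 0.06), and NPNT, a kidney ligand, fell by 0.99 (SE 0.09). Of 8 measured membrane partners (11 listed) 3 rose: the tetraspanin CD82 by 1.75 (SE 0.19), CD47 by 0.41 (SE 0.07) and CD63 by 0.22 (SE 0.06). The call of CD63 was lost without any of the 6 arrays (adjusted p 0.0683 to 0.1251). Among 8 measured repressors of E-cadherin and mesenchymal genes (9 listed), ZEB2 rose by 1.34 (SE 0.07, limma adjusted p 5.1e-05), while SNAI2 had -0.28 (SE 0.09, limma adjusted p 0.0718) and ZEB1 had 0.16 (SE 0.07, limma adjusted p 0.159). Without shGFP replicate 1, SNAI2 had -0.36 with an adjusted p of 0.0410.

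**Figure D4:**
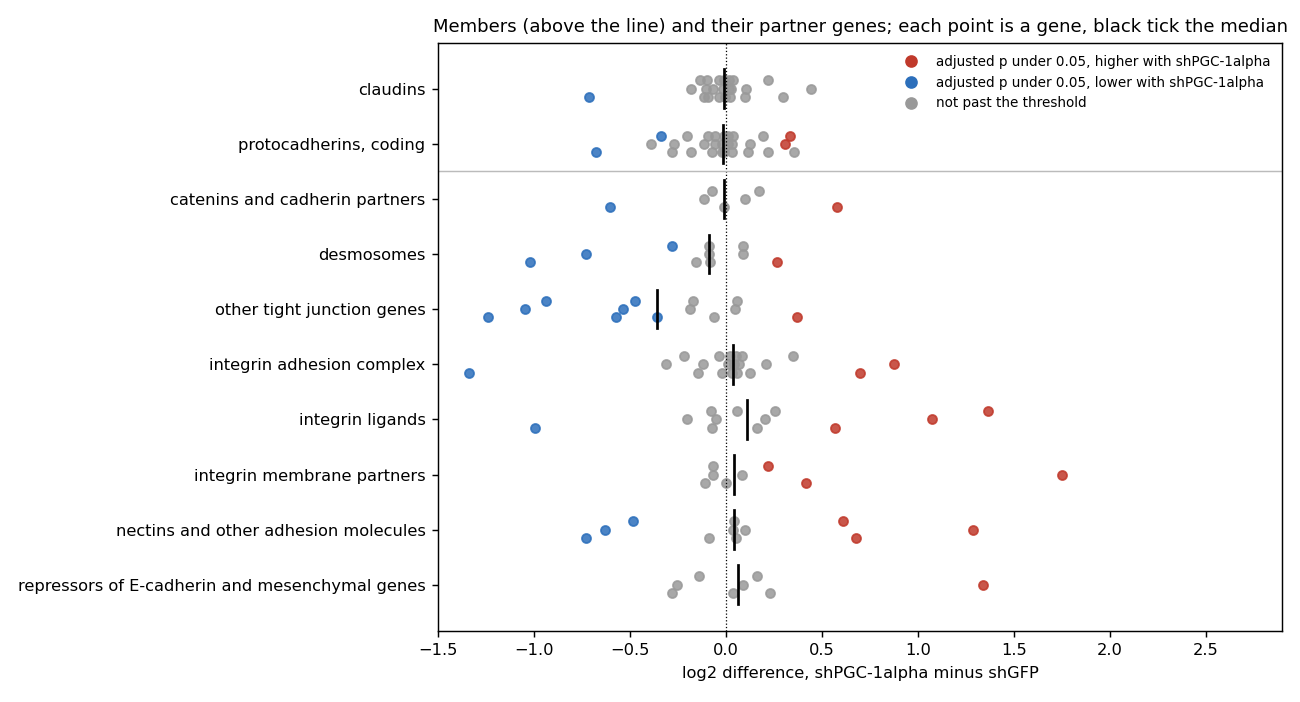
Log2 difference (shPGC-1alpha minus shGFP, horizontal axis) of claudins and coding protocadherins, above the line and without the Y-linked member, and of 8 lists of partner genes; each point is a gene, coloured by whether it passed an adjusted p of 0.05, and the black tick is the median. Other tight junction genes have a median of -0.36, and the claudins have a median of -0.01.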

How the data were processed

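Total RNA of HK2 cells, 3 samples with shPGC-1alpha and 3 with shGFP, was hybridised to Affymetrix arrays. The authors deposited log2 values of 53617 probe sets, made with RMA in Affymetrix Expression Console, per the submitters' processing notes, with no version stated. RMA values carry no counts or detection calls. A platform table gave 1 symbol for 16098 probe sets and none for 37519. Names matched RefSeq (GRCh38.p14). A listed gene is called measured where it had a symbol, so a gene not measured may still be on the array. For 779 genes with several probe sets the one with the highest mean stood for the gene.

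The shPGC-1alpha arrays were set against the shGFP arrays in R 4.3.3 with limma 3.58.1 (linear model and moderated variance, two-sided, no filter, Benjamini-Hochberg over 14884 genes, threshold 0.05), tested on simulated data. In those simulated data, with 200 changed genes, 65.7% of changes of 0.5 log2 units and 97.0% of changes of 1 were recovered. Changes under 0.5, where most members lie, were not simulated. Far more genes passed in the real data than were changed there. The smallest p an exact permutation of 3 and 3 arrays allows is 0.1. Intervals are limma's 95% intervals. The text names members past the threshold, the 3 with the highest mean per subfamily and, per partner list, the 3 with the smallest p among those that passed (2 where none passed); other genes, such as CLDN16, PCDH1 and members with an unadjusted p under 0.05, were chosen after their values were seen. Members and lists were chosen with earlier results of these data known. Promoter sequences are RefSeq's.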

Additional observations from a re-analysis of the deposited data

How the results depend on the processing

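The lower levels of CLDN2 and PCDH20 passed under all 14 alternatives tried (each array left out, a replicate block, a filter on dim genes, 2 other probe set choices, adjustment over all probe sets, 2 scalings and another variance model), at -0.81 to -0.64 and -0.79 to -0.61. Adjusted over all 53617 probe sets, 767 genes were higher and 970 lower, against 1426 and 1817, and 0 members were higher in limma, with 0 beta protocadherins in either direction, 0 higher other protocadherins and 0 cadherins, with 7 of 64 members higher at an unadjusted p under 0.05, as were 2211 of 14884 genes. Median centring moved the median log2 difference over all genes from -0.02 to 0.04. It gave 1867 genes higher and 1440 lower, 5 members higher, 2 beta protocadherins higher and 1 claudin higher, CLDN16. CLDN16 also passed with quantile normalization, among genes above the 20th percentile and with the trend and robust variance model (1 claudin higher each time). That variance model and the filter on dim genes gave 2 other protocadherins lower, PCDH1 and PCDH20, and the variance model gave 0 beta protocadherins higher. With the replicate block, 2 other protocadherins (PCDH1 and PCDH20) and 0 beta protocadherins were lower and 0 cadherins were higher. The labels do not say whether the numbers pair the samples. Deviations of same-numbered arrays correlated at 0.117, 0.087 and 0.023, and those of differently numbered arrays at -0.123 to 0.057. Each shPGC-1alpha array correlated best with its own number, but shGFP replicate 3 did not. Correlations this weak cannot decide whether the arrays are paired. With 1 array left out, 1011 to 1170 genes were higher and 1301 to 1502 lower, 1 to 2 members were higher and 2 to 3 lower, claudins 0 to 1 higher, beta protocadherins 0 to 1 in each direction, other protocadherins 0 to 1 higher and cadherins 0 to 1 higher. Some small differences changed sign. With 1 array left out, CDH23 ranged from -0.12 to 0.02 (above 0 without shPGC-1alpha replicate 1 or shGFP replicate 3), CLDN3 from -0.0030 to 0.0391 (below 0 without shPGC-1alpha replicate 3) and PCDH17 from -0.0752 to 0.0956 (below 0 without shGFP replicate 3). CDH23 was 0.0035 with median centring. Beyond the changes that follow from testing more features or fewer arrays, or from the moved scale, the cause was not tested.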
